A study of Mus musculus with 18 samples.

Results

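Mucin transcripts of the mouse larynx were followed through 10 genes, 4 that encode secreted mucins (Muc2, Muc5ac, Muc5b, Muc19) and 6 that encode membrane mucins (Muc1, Muc4, Muc13, Muc15, Muc16, Muc20). They were selected by gene symbol. All 10 were found among the 54532 genes of the deposited count table, and all 10 were among the 17537 genes with enough counts to be tested. The libraries came from whole larynges of male C57BL6/J mice, 8 to 9 weeks old, for which the labels name no genetic change. There were 6 libraries each from mice kept in room air (labelled TRC), mice that inhaled smoke of 3R4F reference cigarettes (CSE), and mice that inhaled aerosol from JUUL Virginia tobacco e-cigarettes (JVT). Exposure took place in a whole-body chamber for 4 weeks, on 5 days of each week and for 1 hour on each day. The comparisons asked how each exposure differed from air and from the other.

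Mucins are large glycoproteins whose serine- and threonine-rich tandem repeats carry dense O-linked sugars. Secreted mucins polymerise through disulfide bonds into the gel that traps inhaled particles for removal by cilia, while membrane mucins stay anchored in the apical membrane and form the barrier and lubricating coat next to the cell. In the larynx, mucus comes from surface secretory cells and from submucosal glands, and the vocal folds and other stretches of the surface are covered by stratified squamous epithelium. In these bulk libraries, fewer cells of a type and less RNA per cell cannot be told apart.

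The genes lie in a few clusters. Muc2 (chromosome 7, 141690340 to 141754693), Muc5ac (chromosome 7, 141788972 to 141819231) and Muc5b (chromosome 7, 141839070 to 141873084) follow each other on the plus strand, with gaps of 34.3 and 19.8 kb, and Muc6 lies 35.0 kb before Muc2. Muc4 (chromosome 16, 32735886 to 32782391, plus strand) and Muc20 (chromosome 16, 32777419 to 32797435, minus strand) overlap tail to tail, and Muc13 (chromosome 16, 33794037 to 33819934) lies 997 kb further on. Muc16 (chromosome 9, 18495455 to 18674530, minus strand) has 78 exons in its longest annotated transcript, Muc1 (chromosome 3, 89229057 to 89233381) has 7, Muc15 (chromosome 2, 110721340 to 110739527) has 4 and Muc19 (chromosome 15, 91838326 to 91934555) has 43. These coordinates, as deposited (GRCm38), were the same in the GENCODE M21 annotation for 10 of 10 genes. Muc19 is listed there as a processed transcript with no coding part, although the gene encodes a salivary gel-forming mucin.

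Tandem repeats define mucin coding sequence and bear on how short reads can be placed, so 2 recurring stretches are shown, each from the coding part of a GENCODE M21 transcript (lower case, 5′ to 3′, no capitals). The length of each is the commonest short spacing between identical words in that coding part. The Muc5ac stretch is 96 bases long, itself holds shorter near-identical repeats, and occurs in 4 identical copies, the first at base 5786 of the 10752-base transcript. The Muc13 stretch is 81 bases long and occurs in 5 identical copies, the first at base 316 of 2969. Shorter stretches recur more often, and the most frequent 50-base window of the transcript occurs 11 times in Muc5ac and 6 times in Muc13.
Muc5ac repeat stretch: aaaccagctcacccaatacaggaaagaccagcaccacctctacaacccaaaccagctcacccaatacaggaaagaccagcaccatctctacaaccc
Muc13 repeat stretch: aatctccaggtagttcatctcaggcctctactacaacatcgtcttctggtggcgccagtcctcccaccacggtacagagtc
Of all 50-base windows of the longest transcript, 36.7% recurred elsewhere in it in Muc19, 23.2% in Muc5ac, 21.9% in Muc5b, 14.2% in Muc13, 10.1% in Muc4, 2.06% in Muc16 and 1.28% in Muc1, and 0 did in Muc2, Muc15 and Muc20. The longest Muc2 transcript holds only 2926 bases, against 7127 exon bases of the gene, so the value of 0 does not cover the rest of Muc2. How reads from repeats were assigned within a gene was not tested.

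Promoter sequence is shown for the 4 members that were called in any comparison and have a RefSeq promoter entry (GRCm38.p6, where 6 of 10 members matched by symbol). Each line gives the 250 bases before the start, read in the direction of the gene, with matches to 6 motifs in capitals.
Muc16, chr9:18674604-18674853, minus strand: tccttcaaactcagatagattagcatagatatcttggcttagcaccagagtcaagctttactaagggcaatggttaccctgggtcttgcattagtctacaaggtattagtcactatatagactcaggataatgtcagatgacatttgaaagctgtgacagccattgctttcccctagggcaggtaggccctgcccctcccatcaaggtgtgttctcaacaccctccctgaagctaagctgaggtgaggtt
Muc4, chr16:32735636-32735885, plus strand: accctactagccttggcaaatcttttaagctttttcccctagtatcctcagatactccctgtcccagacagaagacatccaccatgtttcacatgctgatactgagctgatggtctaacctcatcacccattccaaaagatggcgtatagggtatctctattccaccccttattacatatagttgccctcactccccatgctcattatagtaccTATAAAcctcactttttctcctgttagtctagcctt
Muc20, chr16:32797436-32797685, minus strand: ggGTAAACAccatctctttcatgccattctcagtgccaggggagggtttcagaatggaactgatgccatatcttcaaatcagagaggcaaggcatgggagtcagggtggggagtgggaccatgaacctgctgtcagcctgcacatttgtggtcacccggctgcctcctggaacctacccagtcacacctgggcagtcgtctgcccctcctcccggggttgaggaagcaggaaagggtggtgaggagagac
Muc13, chr16:33793787-33794036, plus strand: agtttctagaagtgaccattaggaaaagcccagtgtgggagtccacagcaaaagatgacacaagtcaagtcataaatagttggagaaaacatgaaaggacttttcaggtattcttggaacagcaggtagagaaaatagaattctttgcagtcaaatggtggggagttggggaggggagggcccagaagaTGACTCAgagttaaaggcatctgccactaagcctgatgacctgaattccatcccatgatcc
The motifs were searched on both strands of 300-base windows (250 bases before to 50 after the start) of all 32851 promoter entries. These were the TATA box (TATAAA, in 13.6% of entries), the GC box (GGGCGG, 35.7%), the AP-1 motif (TGANTCA, 7.81%), the core of the aryl hydrocarbon receptor motif (GCGTG, 32.4%), the STAT6 motif (TTC and GAA with 4 bases between them, 6.95%) and the FOXA motif (TGTTTAC, 3.65%). Muc4 had a TATA box whose first base lies at -36 from the start, Muc13 had an AP-1 match at -61, and Muc20 had a FOXA match at -248. These letters did not occur for any of the 6 motifs in the Muc16 window. A second RefSeq start of Muc13 is not shown.

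Total counts ran from 15551432 to 22469894 per library. Marker genes of laryngeal tissue (Krt5, Krt13, Foxj1, Bpifa1, Acan, Myh2 and Myh4) were detected in all 18 libraries. Other tissue content varied between libraries. Air 4, 5 and 6 held 6212, 1729 and 2446 CPM of a 29-gene glandular acini list against 20470 to 28070 CPM in air 1, 2 and 3. CPM are counts scaled to a library size of 1 M, with TMM factors. The same list summed to 21820 to 32210 CPM in smoke and 20530 to 58030 CPM in e-cigarette. The 16-gene thyroid list summed to 60760 to 100900 CPM in air, 60010 to 96940 CPM in smoke and only 156 to 29740 CPM in e-cigarette, so that thyroid content and e-cigarette exposure cannot be told apart. The fast skeletal muscle list also separated e-cigarette from air, at 46970 to 62050 CPM against 26030 to 45390 CPM. In that comparison 15 of 20 tested genes rose (75%, beside 12.1% higher over all tested genes). Smoke, at 36740 to 51400 CPM, overlapped both. The parathyroid list separated e-cigarette from air too, at 17.9 to 31.4 CPM against 46.1 to 7878 CPM. There 7 of 8 tested genes fell (87.5%, beside 13.0% lower over all tested genes), and smoke ran from 31.6 to 3653 CPM. The cartilage list was lower in air 4, 5 and 6 (242 to 335 CPM) than in air 1, 2 and 3 (673 to 951 CPM), and at 542 to 1773 CPM in the exposed libraries. In an alternative fit, scores of fast skeletal muscle, cartilage, thyroid and adipocytes were used together as covariates (the 4 tissue scores below). The part of muscle, cartilage or parathyroid content, each taken singly, in the values of the members was not tested. The squamous suprabasal list ran from 7568 to 28320 CPM within the e-cigarette group. The 30-gene ciliated cell list summed to 760 to 1389 CPM in air, 648 to 862 CPM in smoke and 914 to 1467 CPM in e-cigarette.

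Per kilobase of exon, Muc5b had the highest mean level in every group and was below Muc1 in 1 library, air 5. Its mean was 94.9 ± 81.0 CPM per kb in air, 215 ± 76.4 in smoke and 219 ± 123 in e-cigarette (SD, n = 6 each). It made up 54.2% ± 22.9 of the summed per-length level of the 10 genes in air, 77.2% ± 6.46 in smoke and 69.6% ± 12.0 in e-cigarette. In air the order of mean levels was Muc5b, Muc1, Muc4, Muc16, Muc20, Muc19, Muc13, Muc15, Muc5ac and Muc2. Neighbours in that order overlapped in range except Muc13 and Muc15, although Muc1 exceeded Muc4, Muc4 exceeded Muc16 and Muc16 exceeded Muc20 in each of the 6 air libraries. Muc16 stood at 7.34 ± 1.66 CPM per kb in air, 11.5 ± 2.36 in smoke and 18.0 ± 3.78 in e-cigarette, where it ranked above Muc4 in 5 of 6 libraries. Muc5ac stood at 0.599 ± 0.209, 1.17 ± 0.409 and 1.39 ± 0.490 CPM per kb in the same order of groups, so the Muc5b level was 30.6 to 232 times that of Muc5ac in air, 128 to 364 times in smoke and 71.0 to 264 times in e-cigarette. Muc2 was lowest in every group, at 0.287 ± 0.264, 0.135 ± 0.187 and 0.294 ± 0.233 CPM per kb.

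**Figure D1:**
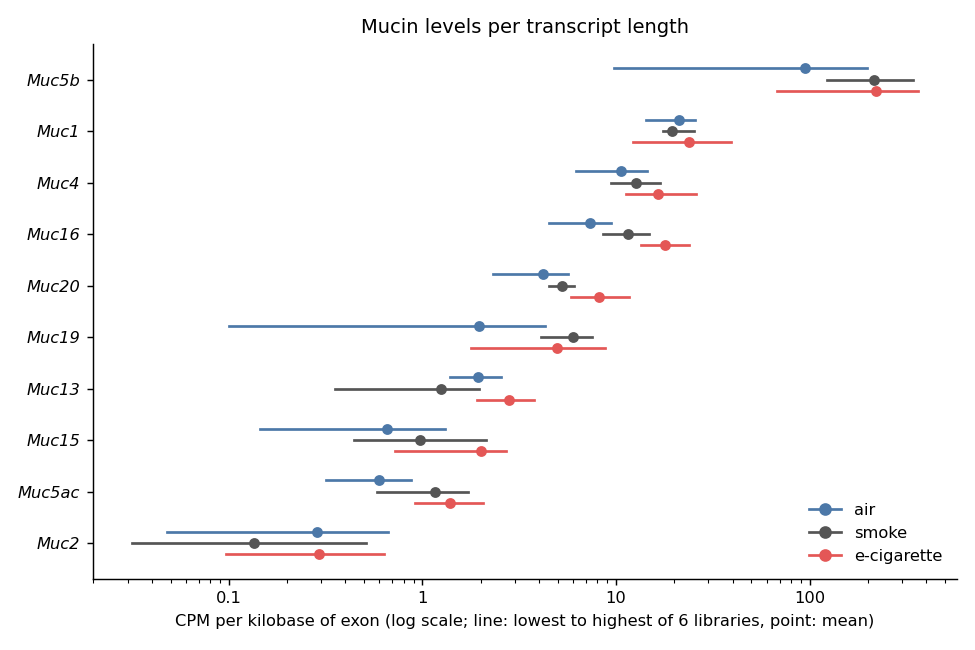
Level of each mucin gene in CPM per kilobase of exon (log scale) in air, smoke and e-cigarette libraries; the point is the group mean and the line runs from the lowest to the highest of 6 libraries. Muc5b is far above the other 9 genes on average, and its air range reaches down to 9.73 CPM per kb.

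Of the 3 comparisons, e-cigarette versus air held the most called members and smoke versus air held none. A gene is said to be called, to rise or to fall where its adjusted p was below 0.05 in edgeR's quasi-likelihood F test, adjusted by Benjamini-Hochberg over all tested genes; adjusted p-values below are from that fit unless another tool is named. In smoke versus air, 0 of 10 members were called, beside 1.59% of all tested genes (0.975% higher and 0.616% lower). The groups overlapped for all 10, beside 2.43% of tested genes without overlap. At an unadjusted p below 0.05 there were 4, and DESeq2 called 2 members (Muc5ac and Muc16), and voom with sample quality weights called 4 (these and Muc5b and Muc19). The shares of tested genes called that stand beside the counts are edgeR's, at an adjusted p below 0.05. Those at an unadjusted p below 0.05 and with DESeq2 or voom are not given. The counts of members from these, here and below, thus do not single out the members. Fitted log2 fold changes were above 0 in 7 members and ran from -1.09 to 1.60, with a median of 0.439 beside 0.00944 over all tested genes. In e-cigarette versus air, 5 of 10 rose (Muc4, Muc5ac, Muc15, Muc16 and Muc20) and 0 fell, beside 25.1% of tested genes called in either direction, 12.1% higher and 13.0% lower. Voom called 7 there (these and Muc5b and Muc19). All 10 fitted values were above 0 in that comparison, with a median of 1.09 beside 0.00675 over all tested genes. The groups did not overlap for 3 members (Muc5ac, Muc16 and Muc20), beside 10.5% of tested genes without overlap, 4.50% of them higher. In smoke versus e-cigarette, 3 of 10 were lower in smoke (Muc13, Muc16 and Muc20) and 0 higher, beside 16.5% of tested genes called, 10.4% higher and 6.10% lower. Voom called 4 there (these and Muc2). The median was -0.507 beside -0.00837, and 0 members had groups that did not overlap, beside 9.37% of tested genes. With the thyroid score as a covariate 0 members were called in any of the 3 comparisons. In e-cigarette versus air, Muc16 then had an unadjusted p of 6.01e-03 and an adjusted p of 0.236 in edgeR's test. Without the score, Muc4 had 6.09e-03 and 0.0291. Fewer genes thus passed over the whole table in that comparison with the score. Their share is not given here, so the 0 does not single out the members. The comparisons with air share the same air libraries, and smoke versus e-cigarette is the test of whether the 2 differences from air are unequal.

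**Figure D2:**
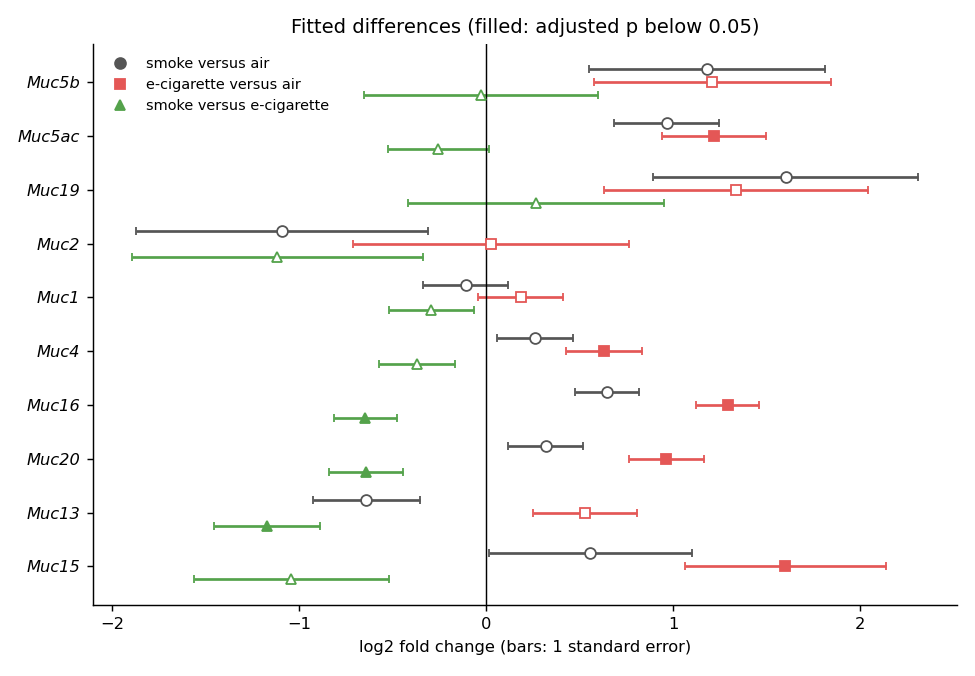
Fitted log2 fold changes of the 10 genes in smoke versus air (circles), e-cigarette versus air (squares) and smoke versus e-cigarette (triangles), with bars of 1 standard error; filled symbols have an adjusted p below 0.05. No circle is filled, 5 squares are filled to the right of 0 and 3 triangles are filled to the left.

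Muc16, a very large membrane mucin of surface and glandular epithelium, had the smallest adjusted p of the members in e-cigarette versus air. It ran from 119 CPM (median 201) to 248 CPM in air, from 226 CPM (median 300) to 389 CPM in smoke and from 353 CPM (median 447) to 628 CPM in e-cigarette. Every e-cigarette library was above every air library, and the smoke median lay between theirs, with 5 of 6 smoke libraries above all of air. It rose 2.45-fold in e-cigarette versus air (log2 fold change 1.29, SE 0.17, adjusted p = 2.53e-05). In smoke it was 1.56-fold lower than in e-cigarette (-0.65, SE 0.17, adjusted p = 0.0126). That call was lost without e-cigarette 2, 4, 5 and 6, the 4 libraries lowest in thyroid transcripts (-0.36, adjusted p = 0.556), with the thyroid score as a covariate (-0.18, adjusted p = 0.862) and with 4 tissue scores (-0.20, adjusted p = 0.954, the highest over 33 alternatives). Without those 4 libraries only e-cigarette 1 and 3 remained in their group, here and for the members below. A call lost there need not mean a smaller difference. The smoke versus air value of 0.65 (SE 0.17, adjusted p = 0.0553, higher than the air mean in 6 of 6 samples) did not pass, but it passed without air 2 (0.68, adjusted p = 0.0475) or air 3 (0.72, adjusted p = 0.0474). Over 33 alternatives that adjusted p ran from 0.0162 to 0.509. The e-cigarette versus air call was kept without air 4, 5 and 6 (1.11, adjusted p = 6.99e-04) and without e-cigarette 2, 4, 5 and 6 (0.98, adjusted p = 0.0173). With the glandular acini score as a covariate it was 0.94 (adjusted p = 4.16e-03). It was lost with the thyroid score as a covariate (0.80, adjusted p = 0.236, the highest over 33 alternatives).

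Muc20, a small membrane mucin, ran from 9.28 CPM (median 17.6) to 22.7 CPM in air, from 18.1 CPM (median 21.4) to 24.5 CPM in smoke and from 23.5 CPM (median 33.2) to 46.9 CPM in e-cigarette. Each e-cigarette library exceeded each air library, and the smoke libraries lay within a narrow band around the top of the air range. It rose 1.95-fold in e-cigarette versus air (0.96, SE 0.20, adjusted p = 1.55e-03) and was lower in smoke than in e-cigarette (-0.64, SE 0.20, adjusted p = 0.0312). The smoke versus air value was 0.32 (SE 0.20, adjusted p = 0.388). Muc4, its neighbour, is a long membrane mucin that can bind the receptor ErbB2. It ran from 73.1 CPM (median 129) to 171 CPM in air, from 111 CPM (median 151) to 199 CPM in smoke and from 132 CPM (median 172) to 303 CPM in e-cigarette. The groups overlapped, with 4 of 6 e-cigarette libraries above all of air. It rose 1.55-fold in e-cigarette versus air (0.63, SE 0.20, adjusted p = 0.0291), and the values in smoke versus air (0.26, SE 0.20, adjusted p = 0.501) and smoke versus e-cigarette (-0.37, SE 0.20, adjusted p = 0.234) did not pass. Muc4 and Muc20 share 627 exon bases on opposite strands, 5.33% of Muc4 and 15.6% of Muc20, and without strand reads there cannot be assigned to one of them. The Muc4 call was lost without air 4, 5 or 6, or e-cigarette 5 or 6 (0.44 to 0.63, adjusted p 0.0502 to 0.0893 in those 5 fits). Without e-cigarette 2, 4, 5 and 6 the e-cigarette versus air values were 0.47 for Muc20 (adjusted p = 0.319) and 0.14 for Muc4 (adjusted p = 0.799). Without air 4, 5 and 6 they were 0.60 for Muc20 (adjusted p = 0.0228) and 0.41 for Muc4 (adjusted p = 0.209). With the glandular acini score as a covariate they were 0.30 (adjusted p = 0.217) and 0.18 (adjusted p = 0.656); over 33 alternatives the adjusted p ran from 6.23e-05 to 0.642 for Muc20 and from 4.37e-03 to 0.997 for Muc4. The Muc20 difference between smoke and e-cigarette lost its call without any of smoke 2, 3, 4 or 5 or e-cigarette 2, 4, 5 or 6 (-0.66 to -0.51, adjusted p 0.0507 to 0.0843 in those 8 fits). Without e-cigarette 2, 4, 5 and 6 together it was -0.18 (adjusted p = 0.831), with the thyroid score -0.17 (adjusted p = 0.895), and with 4 tissue scores it turned to 0.10 (adjusted p = 0.975).

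Muc5ac, the inducible gel-forming mucin of goblet cells, ran from 3.42 CPM (median 6.26) to 9.36 CPM in air, from 6.30 CPM (median 12.7) to 18.6 CPM in smoke and from 9.86 CPM (median 13.4) to 22.1 CPM in e-cigarette. All 6 e-cigarette libraries were above all air libraries, and 4 of 6 smoke libraries were. It rose 2.33-fold in e-cigarette versus air (1.22, SE 0.28, adjusted p = 3.4e-03). The smoke versus air value was 0.96 (SE 0.28, adjusted p = 0.0724), a 1.95-fold difference that did not pass, and smoke versus e-cigarette gave -0.26 (SE 0.27, adjusted p = 0.569). Air 4, 5 and 6 were the 3 lowest air libraries, at 4.91, 3.42 and 5.49 CPM. Without them the e-cigarette versus air value was 0.85 (adjusted p = 0.0642), and without e-cigarette 2, 4, 5 and 6 it was 0.81 (adjusted p = 0.226). With the glandular acini score as a covariate it was 0.46 (adjusted p = 0.296). Over 33 alternatives the adjusted p ran from 1.43e-04 to 0.662.

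Muc5b, the gel-forming mucin that dominates in glands and is needed for mucociliary clearance in mouse airways, split the air group. Air 1, 2 and 3 held 2273, 2238 and 2969 CPM, whereas air 4, 5 and 6 held 566, 146 and 325 CPM. Smoke ran from 1830 CPM (median 3176) to 5098 CPM. E-cigarette ran from 1014 CPM (median 3649) to 5442 CPM, with libraries 1 and 2 at 1181 and 1014 CPM and the other 4 at 3306 to 5442 CPM. The ranges of the 3 groups overlapped. The fitted values were 1.18 in smoke versus air (SE 0.63, adjusted p = 0.316), 1.21 in e-cigarette versus air (SE 0.63, adjusted p = 0.179) and -0.03 in smoke versus e-cigarette (SE 0.62, adjusted p = 0.981), none of which passed. Without air 4, 5 and 6 the first 2 values were 0.35 (adjusted p = 0.754) and 0.39 (adjusted p = 0.599). With the glandular acini score as a covariate they turned to -0.60 and -0.57, neither called. Voom with sample quality weights called both without that score (2.19, adjusted p = 0.0238, and 1.76, adjusted p = 0.0323).

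Muc19, a gel-forming mucin of salivary and submucosal glands, split in the same libraries. Air 1, 2 and 3 held 24.8, 39.2 and 36.6 CPM, whereas the level in air 4, 5 and 6 was 4.80, 0.911 and 1.34 CPM. Smoke ran from 37.2 CPM (median 53.7) to 68.1 CPM, and e-cigarette from 16.2 CPM (median 48.2) to 79.9 CPM. Of the smoke libraries 5 of 6 were above all of air. The fitted values were 1.60 in smoke versus air (SE 0.71, adjusted p = 0.221), 1.33 in e-cigarette versus air (SE 0.71, adjusted p = 0.185) and 0.27 in smoke versus e-cigarette (SE 0.68, adjusted p = 0.836). Without air 4, 5 and 6 the values against air were 0.68 in smoke (adjusted p = 0.452) and 0.43 in e-cigarette (adjusted p = 0.521). With the glandular acini score as a covariate, the e-cigarette versus air value turned to -0.89 (SE 0.29, adjusted p = 0.0348), and over 33 alternatives its adjusted p ran from 9.4e-03 to 0.862. Voom with sample quality weights called it higher in both exposures, at 2.60 in e-cigarette (adjusted p = 9.4e-03) and 3.36 in smoke (adjusted p = 9.73e-03) versus air. Muc19 shares 95 exon bases with Smgc on the same strand, so reads there may be split.

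Muc15, a small membrane mucin, ran from 0.518 CPM (median 2.35) to 4.68 CPM in air, from 1.58 CPM (median 2.22) to 7.64 CPM in smoke and from 2.58 CPM (median 8.51) to 9.67 CPM in e-cigarette. Within air it was lowest in libraries 1, 2 and 3 (1.20, 0.518 and 0.641 CPM), the reverse of Muc5b and Muc19. It rose 3.03-fold in e-cigarette versus air (1.60, SE 0.54, adjusted p = 0.0364), with 4 of 6 e-cigarette libraries above all of air. The values in smoke versus air (0.56, SE 0.54, adjusted p = 0.599) and smoke versus e-cigarette (-1.04, SE 0.52, adjusted p = 0.193) did not pass. Leaving out air 1, 2 or 3 or e-cigarette 1, 2, 3 or 5 ended the call (1.39 to 1.53, adjusted p 0.0646 to 0.0753 in those 7 fits), as did leaving out e-cigarette 2, 4, 5 and 6 together (1.93, adjusted p = 0.151), although the value was then larger. It was also lost with total count scaling (1.47, adjusted p = 0.0587), without a filter on low counts (1.585, adjusted p = 0.0987) and with the thyroid score (1.89, adjusted p = 0.431). Over 33 alternatives the call was lost in 12, and the adjusted p ran from 2.12e-03 to 0.431. Without air 4, 5 and 6 the value was 3.17 (adjusted p = 3.44e-03). Muc15 shares 61 exon bases with Ano3 on the other strand.

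Muc13, a membrane mucin typical of digestive and airway epithelium, was lower in smoke than in e-cigarette, with the air mean between them. It ran from 4.21 CPM (median 5.48) to 7.70 CPM in air, from 1.07 CPM (median 4.26) to 5.93 CPM in smoke and from 5.81 CPM (median 7.99) to 11.5 CPM in e-cigarette. Of the smoke libraries, smoke 1 alone reached the e-cigarette range. It was 2.25-fold lower in smoke than in e-cigarette (-1.17, SE 0.28, adjusted p = 7.87e-03). Neither value against air passed, at -0.64 in smoke (SE 0.29, adjusted p = 0.214) and 0.53 in e-cigarette (SE 0.28, adjusted p = 0.173), although the latter passed with the general epithelium score as a covariate (0.80, adjusted p = 0.0358). Without e-cigarette 2, 4, 5 and 6 the smoke versus e-cigarette value was -0.81 (adjusted p = 0.453), with the thyroid score it was -0.83 (adjusted p = 0.672) and with 4 tissue scores -0.44 (adjusted p = 0.937), and over 33 alternatives its adjusted p ran from 4.77e-04 to 0.937. The ciliated list was also lower in smoke than in e-cigarette, with 26 of 30 tested genes falling (86.7%, beside 6.10% over all tested genes). Its part in the Muc13 difference was not tested. Muc13 shares 184 exon bases with an antisense gene, and reads there cannot be told apart.

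Muc1, a membrane mucin of most glandular and surface epithelia with a signalling tail, passed in none of the 3 comparisons. It ran from 33.5 CPM (median 50.5) to 59.7 CPM in air, from 41.1 CPM (median 43.3) to 59.0 CPM in smoke and from 28.7 CPM (median 55.0) to 92.2 CPM in e-cigarette. The e-cigarette libraries spanned the widest range, 3.21-fold, and included both the lowest and the highest of all 18. The fitted values were -0.11 (SE 0.23, adjusted p = 0.832), 0.19 (SE 0.23, adjusted p = 0.591) and -0.29 (SE 0.23, adjusted p = 0.42) in smoke versus air, e-cigarette versus air and smoke versus e-cigarette. Muc2, the gel-forming mucin of intestinal goblet cells, was near the lower end of what was tested, with 4 to 79 counts per library. It ran from 0.342 CPM (median 1.37) to 4.75 CPM in air, from 0.225 CPM (median 0.412) to 3.65 CPM in smoke and from 0.691 CPM (median 1.35) to 4.52 CPM in e-cigarette. The fitted values were -1.09 (SE 0.78, adjusted p = 0.462), 0.03 (SE 0.74, adjusted p = 0.984) and -1.12 (SE 0.78, adjusted p = 0.364). Smoke 6 decided the smoke mean, and without it the smoke versus e-cigarette value was -2.30 (SE 0.75, adjusted p = 0.048; over 33 alternatives 0.0378, with voom, to 0.933).

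**Figure D3:**
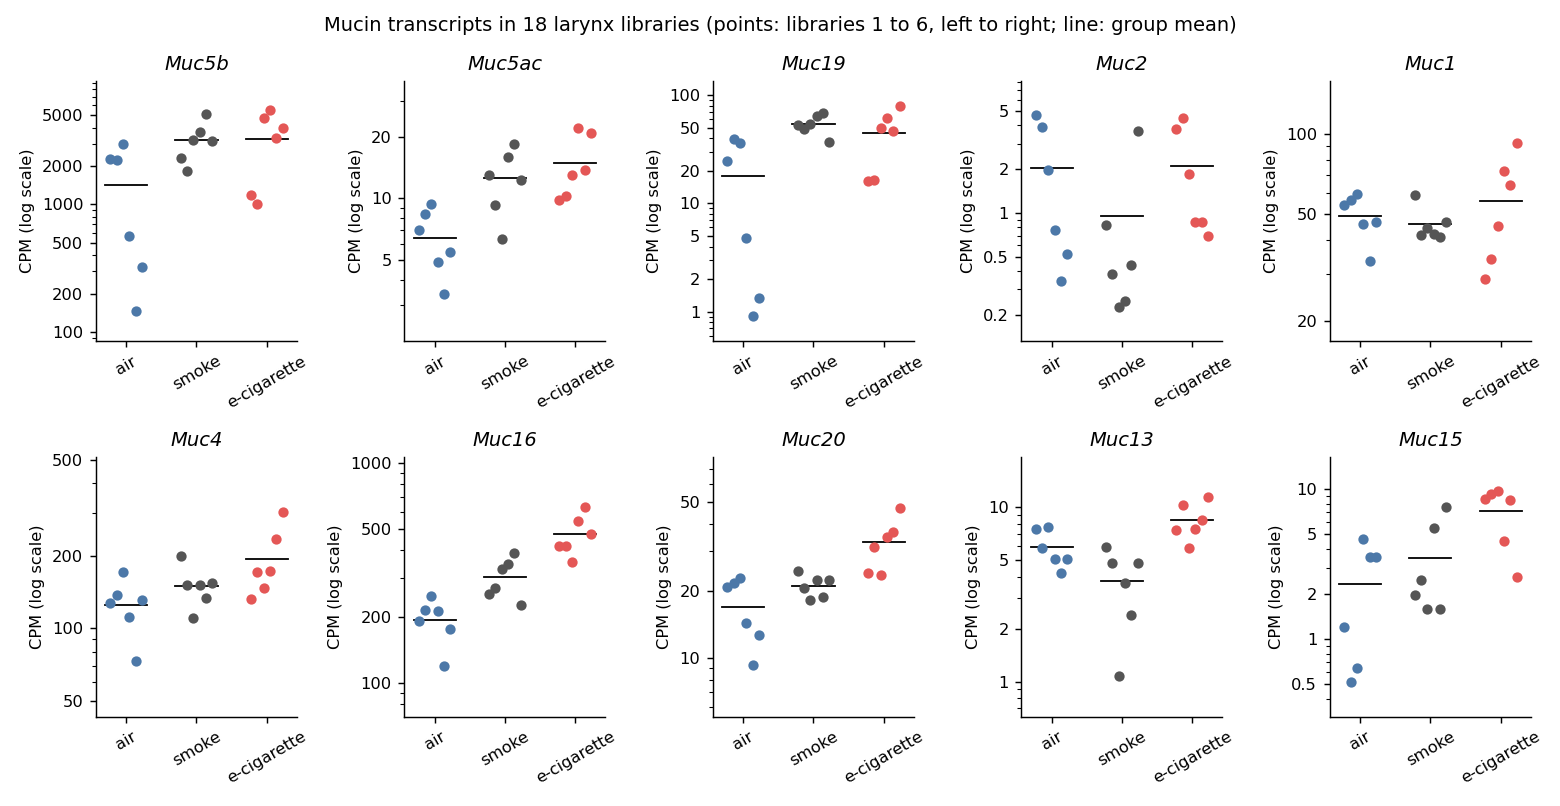
Level of each of the 10 mucin genes in CPM (log scale, a separate axis for each gene) in libraries 1 to 6 of air, smoke and e-cigarette, from left to right within a group, with the group mean as a line. Air 4, 5 and 6 drop in Muc5b and Muc19, Muc16 is higher in every e-cigarette library than in any air library, and Muc2 is high in air 1, 2 and 3, smoke 6 and e-cigarette 1, 2 and 3.

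Within groups the members did not vary together as 1 set. Over the 18 libraries, with group means removed, log2 CPM of Muc5b and Muc19 correlated with Pearson's r of 0.95, Muc4 and Muc20 with 0.87, Muc19 and Muc20 with 0.82 and Muc1 and Muc4 with 0.79. Muc15 ran against the gland-linked members, with r of -0.74 to Muc19 and -0.62 to Muc5b. Against marker lists, the deviations of the glandular acini list correlated with those of Muc19 (r = 0.97), Muc5b (0.88), Muc20 (0.84) and Muc15 (-0.71), and those of the squamous suprabasal list with Muc15 (0.84). Muc13 was closest to the basal cell list (0.76), and Muc16 had no list above 0.55, its value for the glandular acini list. These are descriptions over 18 libraries that share their tissue content, not tests. With the squamous score as a covariate, an alternative added after the data were seen, Muc15 in e-cigarette versus air was 1.04 (SE 0.29, adjusted p = 0.0117); with the glandular acini score it was 3.44 (SE 0.69, adjusted p = 2.12e-03).

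**Figure D4:**
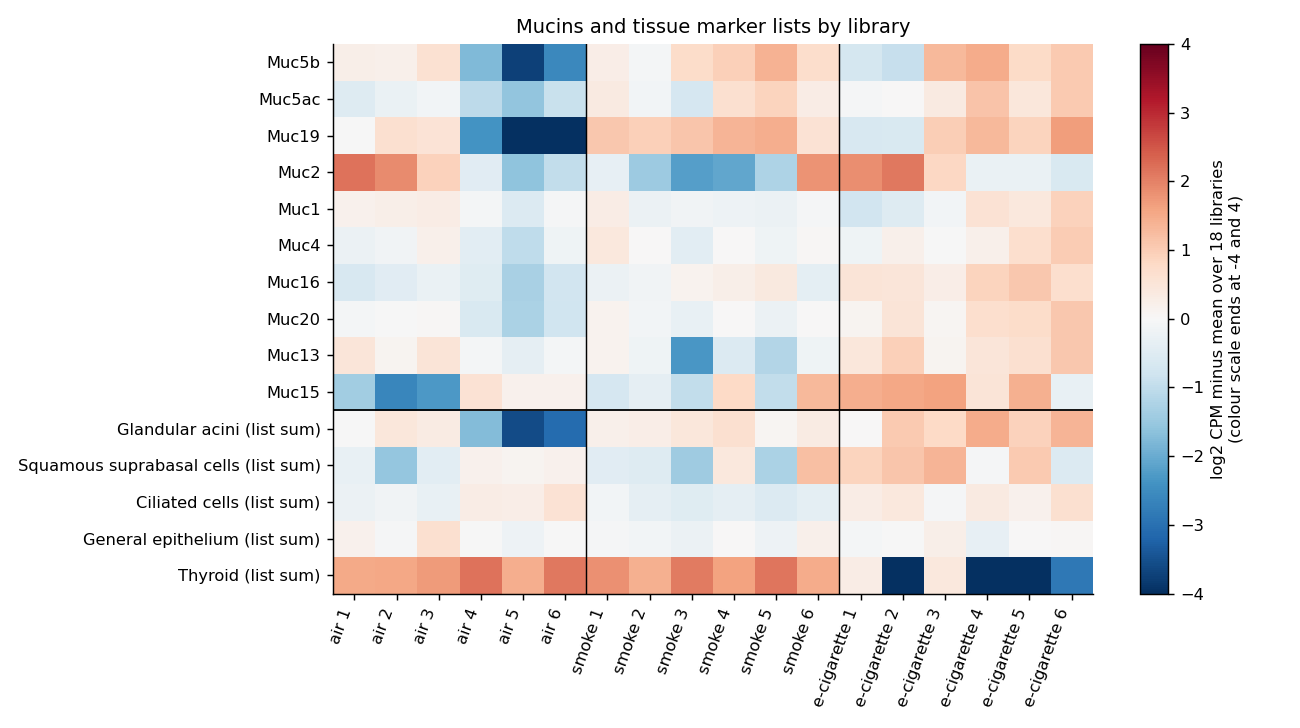
Log2 CPM of each mucin gene, and of the summed CPM of 5 marker lists, minus its mean over the 18 libraries (colour scale ends at -4 and 4). Muc5b and Muc19 are low in air 4, 5 and 6 together with the glandular acini list, Muc15 is high where the squamous list is high, and the thyroid list is low in e-cigarette 2, 4, 5 and 6.

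The genes whose within-group pattern was most like that of a member were taken as the 3 best correlated protein-coding genes of 14103 over the 18 libraries. For Muc15 they included Rnf227 (r = 0.96) and Serpinb3b (0.95), of a family of protease inhibitors. For Muc19 they were Etv1, an ETS transcription factor, Pycr1, of proline synthesis, and Sel1l3, each at 0.97. For Muc5b they were Edc4, Mfge8 and Lamb2, each at 0.97. Muc4 and Muc20 shared Omp as their closest gene (0.90 and 0.91), and Rab27a, a GTPase of secretory granule release, was the second for Muc20 (0.91). For Muc16 they were Helz (0.92), Ptprk (0.90) and Itih2 (0.89), and for Muc5ac Hspa2 (0.88), Phc1 (0.85) and Coro2a (0.83).

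**Figure D5:**
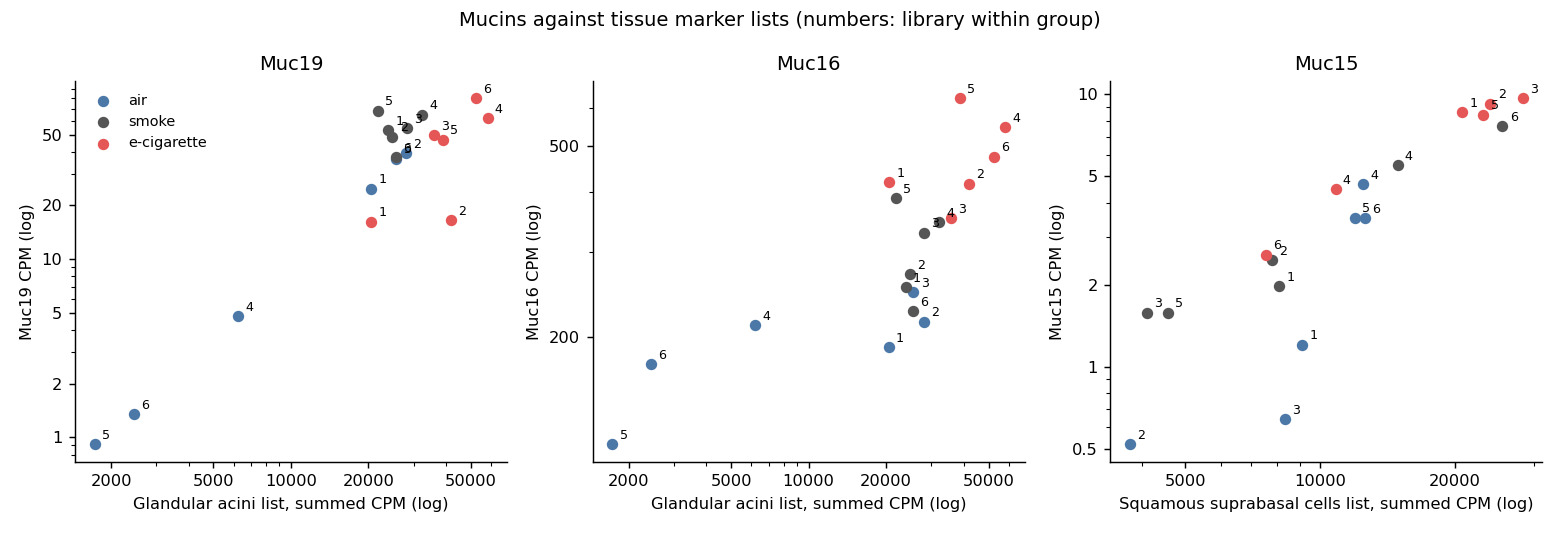
CPM of Muc19 and Muc16 against the summed CPM of the glandular acini list, and of Muc15 against that of the squamous suprabasal list, in 18 libraries (both axes log, points numbered by library within group). Air 4, 5 and 6 lie at the low gland end for Muc19, and Muc15 climbs with the squamous list. E-cigarette 1 lies above air 1 in Muc16 at a like gland level. These libraries also differ in the thyroid list (27380 against 63110 CPM) and the squamous list (20710 against 9101 CPM).

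Genes that package, sugar-coat or anchor mucins moved in both directions. Among 31 tested packaging partners of goblet cells, 1 fell in smoke versus air, and 11 rose and 5 fell in e-cigarette versus air (35.5% and 16.1%, beside 12.1% higher and 13.0% lower over all tested genes), with a median log2 fold change of 0.324 beside 0.00675 over all genes. This list summed to 2705 to 5980 CPM in air 4, 5 and 6 and to 10290 CPM or more in the other 15 libraries, and the part of those 3 libraries in its counts was not tested. Itln1, a goblet cell lectin, fell in smoke versus air (-1.11, SE 0.23, adjusted p = 0.0265). Rab27a rose in e-cigarette versus air (0.61, SE 0.11, adjusted p = 5.60e-04), while Pdia6, a disulfide isomerase, fell (-0.72, SE 0.12, adjusted p = 2.55e-04). Of 48 tested genes on a list for mucin O-glycosylation, which is not limited to enzymes or to O-glycans, 0 were called in smoke versus air. In e-cigarette versus air 16 rose and 5 fell (33.3% and 10.4%, beside the same shares of all genes, median 0.259). The O-glycosylation list summed to 1161 to 1343 CPM in air 4, 5 and 6 and to 1441 CPM or more in the other 15 libraries. The part of those 3 libraries in its counts was not tested. Galnt7, which extends O-glycan initiation, rose from 60.0 ± 23.8 CPM in air to 150 ± 21.9 CPM in e-cigarette (1.32, SE 0.21, adjusted p = 1.82e-04). Fut2, the fucosyltransferase of secreted blood group antigens, rose from 10.6 ± 3.50 to 21.5 ± 2.92 CPM (1.02, SE 0.18, adjusted p = 3.24e-04). St6gal1, a sialyltransferase acting mainly on N-glycans, was lower in e-cigarette, at 13.5 ± 5.68 CPM against 33.0 ± 5.16 CPM in air (-1.29, SE 0.21, adjusted p = 1.82e-04).

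Of 49 tested regulators named for mucin genes, 0 rose and 3 fell in smoke versus air (Areg, Ptgs2 and Jun; 6.12% called, beside 1.59% of all tested genes). In e-cigarette versus air 3 rose and 12 fell (6.12% and 24.5%, beside 12.1% higher and 13.0% lower), and the 30.6% called was near the 25.1% of all tested genes. Ehf, an epithelial ETS factor, rose from 168 ± 23.6 CPM in air to 356 ± 24.1 CPM in e-cigarette (1.08, SE 0.10, adjusted p = 2.11e-06), and its smoke versus air value was 0.40 (SE 0.10, adjusted p = 0.0517). Jun, a component of AP-1, fell in smoke (-0.57, SE 0.14, adjusted p = 0.0474) and in e-cigarette (-1.03, SE 0.14, adjusted p = 3.66e-05) versus air. Hif1a, the hypoxia factor, fell in e-cigarette versus air (-1.12, SE 0.17, adjusted p = 7.35e-05). Nkx2-1 is on this list and is also a defining gene of thyroid, whose transcripts were fewer in e-cigarette libraries. Of 21 tested partners and sheddases of membrane mucins, 0 were called in smoke versus air, and 7 rose and 4 fell in e-cigarette versus air (33.3% and 19.0%, beside 12.1% and 13.0%), among the latter the protease genes Tmprss2 (-0.61, SE 0.10, adjusted p = 1.68e-04) and St14 (-0.68, SE 0.13, adjusted p = 8.54e-04) and the membrane-actin linker Ezr (-0.78, SE 0.18, adjusted p = 3.88e-03). Air 3 held 4349 CPM of the regulator list, against 2851 to 3540 CPM in the other air libraries. It held 4078 CPM of the partner list, against 2398 to 3111 CPM in the others. Ezr ran up to 1110 CPM in air, with a median of 479 CPM. The part of air 3 in the counts of these lists was not tested.

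Of 19 symbols of other mucins and mucin-like genes 16 were found and 12 tested, of which 0 were called in smoke versus air. In e-cigarette versus air 1 rose (Cd164, a sialomucin, 0.30, SE 0.11, adjusted p = 0.0463) and 3 fell, 33.3% called beside 25.1% of all tested genes, too few to read a direction from. The endothelial sialomucin gene Emcn stood at 29.4 ± 3.77 CPM in air and 16.3 ± 3.01 CPM in e-cigarette (-0.85, SE 0.13, adjusted p = 7.6e-05). Mcam, an adhesion molecule gene, was at 46.4 ± 10.4 and 28.6 ± 4.63 CPM (-0.70, SE 0.14, adjusted p = 1.08e-03), and Parm1 at 63.8 ± 7.59 and 43.7 ± 5.63 CPM (-0.54, SE 0.11, adjusted p = 1.14e-03). These 3 and Podxl (0.67, SE 0.17, adjusted p = 0.0113) were higher in smoke than in e-cigarette. Muc6, a gel-forming mucin of stomach glands and the neighbour of Muc2, had 3 to 19 counts per library.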

How the data were processed

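Larynx mRNA was sequenced in 18 libraries, 6 per group, and the authors deposited a table of raw counts. The library kit (NEBNext Ultra, per the labels' protocols) keeps no strand information. STAR (no version) and featureCounts 1.5.0-p3 were used with GRCm38, per the submitters' processing notes. Which annotation release was counted, and with which strand setting, is not given in the sources used here. Nothing in the labels ties 1 library to 1 mouse, and p-values thus reflect the spread between these samples, which may be technical. All 45 within-group pairs of libraries differed by more than counting noise (chi-square over degrees of freedom, 15.4 to 134).

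From the counts, genes were kept with filterByExpr (minimum count 10, minimum total 15). The 3 groups were fitted together in edgeR 4.0.16 (R 4.3.3; TMM, robust quasi-likelihood fit, no covariates), and each SE derives from the F statistic. CPM per kb divides by the deposited gene length, which equalled the union of GENCODE M21 exons for 10 of 10 members. On simulated counts for 17372 genes in e-cigarette versus air, 76% of 100 2-fold and 97% of 99 4-fold changes were recovered, and 5 unchanged genes were called. The simulated libraries held no shared tissue differences and far fewer changed genes than were called here, so these shares do not give the recovery for any member. Alternatives were DESeq2 1.42.0, voom (limma 3.58.1), other scalings and filters, 2-group fits, a replicate block, tissue scores as covariates, an adjusted p threshold of 0.01, and libraries left out.

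The members and gene lists were chosen with earlier results of these data known. The text names all 10 members whatever their p, up to 3 called genes of smallest p per list and comparison, called genes of the list of other mucins, and the 3 protein-coding genes (mean of at least 1 CPM) most correlated with a member, of which 1 is not reported here. Cd164, Podxl and Muc6 come from the list of other mucins, Nkx2-1 from the regulators, and the intestinal genes in the closing section were chosen after values were seen.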

Additional observations from a re-analysis of the deposited data

Results flagged for a closer look

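Among the 30 sets of 6 libraries (10 genes in 3 groups), a single library stood far from the others in 2 by Dixon's test at the 95% level, and chance alone marks about 1 set in 20. Smoke 1 held 59.0 CPM of Muc1, where the next smoke library held 46.8 CPM and the lowest 41.1 CPM (gap over range 0.678). Without it the Muc1 value in smoke versus air was -0.19 (SE 0.24, adjusted p = 0.708 in edgeR). Smoke 6 held 3.65 CPM of Muc2, where the next smoke library held 0.829 CPM and the lowest 0.225 CPM (gap over range 0.823). Without it the Muc2 value in smoke versus air was -2.29 (SE 0.75, adjusted p = 0.143 in edgeR).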

How the results depend on the processing

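Of 990 alternative values of the 30 member results (10 genes, 3 comparisons, 33 alternatives), 873 kept direction and side of the threshold, 54 lost a call, 14 gained one and 49 changed sign. The share of all tested genes called in each alternative is not given beside the counts that follow, so these do not single out the members. The number of members called in smoke versus air was 2 with DESeq2, 4 with voom, 1 with total count scaling and 0 to 1 without 1 library. In e-cigarette versus air it was 7 with voom, 6 with the general epithelium score, 4 with total count scaling or the 2 groups alone, 3 at an adjusted p below 0.01, without a filter on low counts, with the glandular acini score (Muc15 and Muc16 higher, Muc19 lower) or without air 4, 5 and 6, 1 without e-cigarette 2, 4, 5 and 6, 0 with the thyroid score or 4 tissue scores, and 3 to 5 without 1 library. In smoke versus e-cigarette it was 4 with voom, 2 without a filter on low counts, 1 at an adjusted p below 0.01, 0 with the thyroid score, 4 tissue scores or without e-cigarette 2, 4, 5 and 6, and 2 to 4 without 1 library. With a replicate block the counts were 0, 4 and 2 in smoke versus air, e-cigarette versus air and smoke versus e-cigarette, and same-numbered libraries did not deviate together (correlations -0.45 to 0.16), so the numbers do not pair them; 1 of 18 library pairs matched its own number best. Changes of sign, as log2 fold changes, were in e-cigarette versus air: Muc1 -0.059 with voom, -0.41 with the thyroid score, -0.35 with the gland score, -0.62 with 4 tissue scores, -0.020 without air 4, 5 and 6 and -0.44 without e-cigarette 2, 4, 5 and 6. Muc2 was at -0.034 with total count scaling, -2.72e-03 with TMM without thyroid genes, -0.77 with the gland score, -0.45 with the squamous score, -0.51 with 4 tissue scores and -0.78 without air 4, 5 and 6. Muc5b was at -0.57 and Muc19 at -0.89 with the gland score, and Muc13 at -0.28 with 4 tissue scores. In smoke versus air, Muc4 was at -0.20, Muc5b at -0.60, Muc19 at -0.64 and Muc20 at -0.36 with the gland score, Muc20 at -0.065 without air 4, 5 and 6 and Muc1 at 0.052 with 4 tissue scores. In smoke versus e-cigarette, Muc5b was at 0.43 with voom, 0.027 with total count scaling, 0.044 with the replicate block, 0.45 with the thyroid score, 0.42 with 4 tissue scores and 0.11 without e-cigarette 2, 4, 5 and 6. Muc1 (0.26, 0.67 and 0.30), Muc4 (0.012, 0.54 and 0.092) and Muc5ac (0.25, 0.30 and 0.13) turned with the thyroid score, 4 tissue scores and without those libraries, Muc20 was at 0.10 with 4 tissue scores and Muc19 at -5.55e-03 with the squamous score. Without 1 library, Muc1 (-0.029 to 0.30) and Muc2 (-0.35 to 0.47) in e-cigarette versus air and Muc5b in smoke versus e-cigarette (-0.22 to 0.17) changed sign. None of these was called, apart from Muc19 with the gland score; the cause was not tested. Thyroid content separates the e-cigarette group, so the thyroid fits have few libraries to tell the 2 apart. At the depth of these libraries Muc2 and Muc15 rest on 4 to 173 counts each, which limits their precision.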

Other observations

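Muc2 was high in some libraries of each group, where air 1, 2 and 3 held 4.75, 3.91 and 1.99 CPM, smoke 6 held 3.65 CPM and e-cigarette 1, 2 and 3 held 3.77, 4.52 and 1.84 CPM, while the other 11 libraries lay between 0.225 and 0.866 CPM. Of 20 genes known from intestinal epithelium, looked up after these values were seen, some had their higher counts in the same libraries and others did not; Muc3, Zg16 and Lypd8 were chosen because they did. Muc3, an intestinal membrane mucin with too few counts to be tested, had 10, 7 and 10 counts in air 1, 2 and 3, 7 in smoke 6, 8, 8 and 18 in e-cigarette 1, 2 and 3, 1 in e-cigarette 4 and 0 in the others. Zg16, a lectin of intestinal goblet cell granules, had 45, 33 and 22 counts in air 1, 2 and 3, 10 in smoke 6, 39, 30 and 28 in e-cigarette 1, 2 and 3, and 0 to 3 elsewhere. Lypd8, a secreted protein of colon epithelium and the third-ranked gene by likeness to Muc2 (r = 0.81 over 18 libraries), had 131, 72 and 53 counts in air 1, 2 and 3, 42 in smoke 6, 114, 87 and 75 in e-cigarette 1, 2 and 3, and 0 to 23 elsewhere. Car1 was high in air 1 and 2 (168 and 117 counts), e-cigarette 1 and 2 (152 and 175) and smoke 6 (99), but had 3 counts in air 3 and 4 in e-cigarette 3. Fabp2 had 15 counts in both air 6 and e-cigarette 6, Tspan8 was highest in e-cigarette 6 (1877) and air 5 (1258), and Vil1 (16 to 48 counts) and Lgals4 (187 to 346) did not separate these libraries from the rest. Of the 20 genes, 16 to 20 had a count in air 1, 2 and 3 and e-cigarette 1, 2 and 3, 14 in smoke 6, and 9 to 14 in the others. Summed over the 20 genes, air libraries held 66.8 to 98.8 CPM, smoke libraries 48.5 to 75.0 CPM and e-cigarette libraries 68.1 to 117 CPM, most of it from Tspan8 and Lgals4, which had 534 or more and 187 or more counts in every library. The defining intestinal factor Cdx2 was at 0 counts in 15 of 18 libraries. Its few counts were 2 in air 1, 2 in e-cigarette 2 and 1 in e-cigarette 3, which are among the libraries high in Muc2. Cdx1 had 2, 5 and 2 counts in air 1, 2 and 3 and 4, 2 and 1 in e-cigarette 1, 2 and 3. It had 0 in the others, smoke 6 included. The part of these transcripts in the Muc2 values was not tested.

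Mucl2, a mucin-like gene, had 14 counts in e-cigarette 3 and 0 to 4 in the other 17 libraries.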
